A study of Mus musculus with 2 samples.

Results

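The genes described here encode the membrane proteins that swap or co-transport sodium, chloride, bicarbonate, protons, potassium, calcium and sulfate, measured in preglomerular arterioles of mouse kidney. They were taken by symbol, as every gene whose name in the deposited annotation places it in the Slc4, Slc8, Slc9, Slc12 or Slc26 family of solute carriers. This gave 46 genes of the 22270 named genes on the arrays. The symbol pattern also takes 3 genes whose products are not transporters, namely the scaffold genes Slc9a3r1 and Slc9a3r2 and the binding protein gene Slc4a1ap.

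The series holds 2 Affymetrix arrays and asks how the arterioles differ when RBP-J, the DNA-binding factor of Notch signalling, is deleted in renin cells and their descendants. The wild type array carried pooled RNA of 3 mice, 2 males and 1 female, and these mice were RBP-J flox/flox with the R26R ECFP reporter and Ren1d+/+. The RBP-J cKO array carried pooled RNA of 4 male mice that were also RBP-J flox/flox with R26R ECFP but Ren1d+/cre, in which cre sits at 1 Ren1d allele, so that recombination is limited to cells that express or have expressed renin. Floxed RBP-J and the R26R ECFP reporter were thus carried by the controls too, all mice were 3 months old, and both groups were of mixed 129Sv and C57Bl6 strain. Vessels were filled with iron oxide by perfusion and pulled out of collagenase-digested cortex with a magnet. Smooth muscle was present by its marker Acta2, which read 11.21 in wild type and 11.36 in cKO, and so was proximal tubule, whose marker Lrp2 read 12.01 and 12.29.

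Each group is 1 array, so replicate error is unknown and no test of genotype could be made. Differences are cKO minus wild type in log2 units of the authors' RMA values, beside the signed fold and its bounds from the authors' deposited table, computed with dChip from the same arrays. The bounds describe the probes of 2 arrays and not variation between animals, which pooling leaves unmeasured. Genotype cannot be told apart from the sex make-up of the pools, and Xist, the RNA that silences an X chromosome in female cells, read 11.39 in wild type and 5.41 in cKO. In whole vessel RNA, fewer cells of a type and less RNA per cell cannot be told apart. Rbpj itself read 9.0 and 9.02, and as the position of its probes against the floxed segment is unknown here, this checks nothing.

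Along the nephron these carriers divide the work of reclaiming filtered salt and base. In the proximal tubule a sodium/proton exchanger at the brush border and a sodium bicarbonate cotransporter at the basal side recover bicarbonate. The thick limb and the distal convoluted tubule take up sodium chloride through cotransporters that are the targets of loop and thiazide diuretics, and the intercalated cells of the connecting tubule and collecting duct secrete acid or base with anion exchangers. In the vessel wall, other members of the same families set cell pH, volume and chloride, and the cotransporter encoded by Slc12a2 loads smooth muscle and juxtaglomerular cells with chloride.

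Members were grouped by nephron segment or site of known expression, which was not measured here, so other cells may contribute to any group. Members of the tubule read mostly higher on the cKO array, while those shared by vessel wall and many other cells read mostly equal or lower. The floor for a gene was set at a level of 7.56 on its brighter array, which is the median log2 level of the named probe sets. Of the 46 members, 30 were above the floor. Of these 30, 21 were higher in cKO and 9 lower, where 53.9% of all 11580 genes above the floor were higher. Their median difference was 0.17, against 0.02 for all genes above the floor. Over all 46 members, with no floor, 28 were higher and the median was 0.06. At least 1.5-fold higher in cKO were 3 of the 30 members, Slc26a4, Slc4a9 and Slc26a1, where 4.11% of all genes above the floor passed that size. None of the 30 was at least 1.5-fold lower, a size that 1.61% of all genes passed. At 2-fold the count was 0 in either direction, against 0.855% of all genes higher and 0.199% lower.

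**Figure D1:**
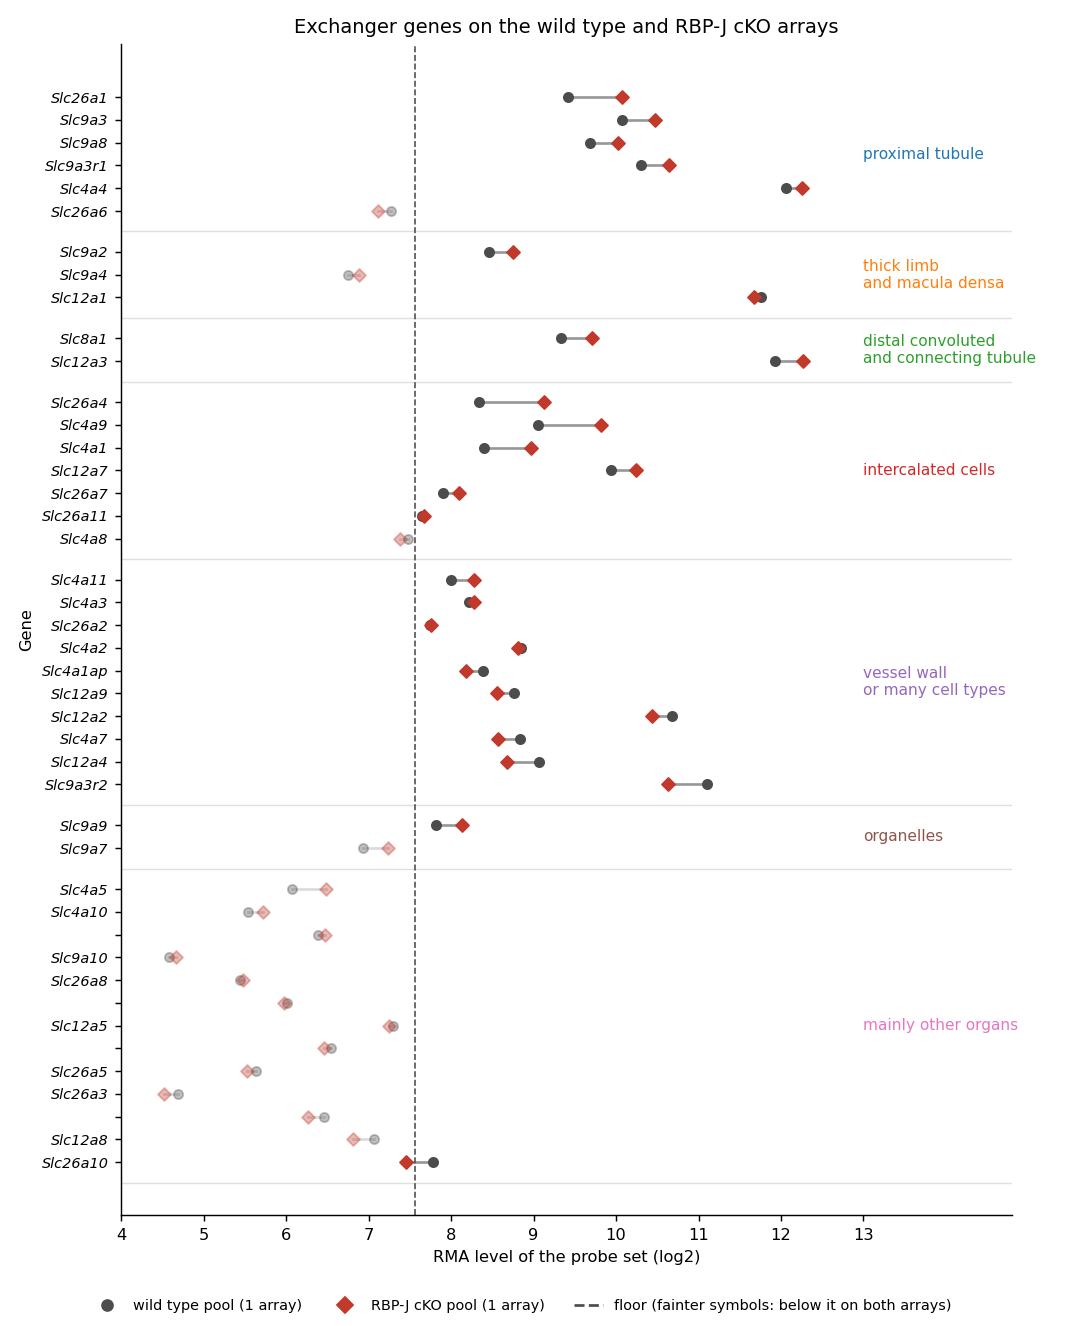
RMA log2 level of 43 of the 46 genes on the wild type array (grey circles) and the RBP-J cKO array (red diamonds), 1 array each, grouped by nephron segment or site of known expression, with the floor as a dashed line and genes below it on both arrays drawn fainter; genes not named in the text have no label. In the intercalated cell rows the cKO symbols of Slc26a4, Slc4a9 and Slc4a1 lie clearly to the right of wild type, whereas Slc9a3r2 and Slc12a4 lie to the left; levels of different genes come from different probes and are not compared.

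Of the members assigned to the proximal tubule, 6 of 6 above the floor read higher in cKO, with a median difference of 0.33. Slc9a3 encodes NHE3, the brush border sodium/proton exchanger that recovers most filtered bicarbonate, and read 10.07 in wild type and 10.47 in cKO, a difference of 0.40. In the authors' deposited table its signed fold was 1.23, with bounds of 1.2 and 1.26. Slc9a8, which encodes the related brush border exchanger NHE8, read 9.69 and 10.03. Slc9a3r1 encodes NHERF1, the scaffold that holds NHE3 and the phosphate transporter at the apical membrane, and read 10.30 and 10.64. Slc9a3, Slc9a8 and Slc9a3r1 thus lay within a narrow range, from 0.33 to 0.40, while the 6 proximal members ranged from 0.05 to 0.66. The sign of the smallest difference turned when differences were centred on a loess trend over level.

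Slc26a1 encodes the basolateral sulfate/anion exchanger and had the largest difference of the proximal members. It read 9.41 in wild type and 10.07 in cKO, a 1.58-fold difference. Its dChip intensities were 1303 and 1738, and the signed fold in the authors' deposited table was smaller, 1.33 with bounds of 1.29 and 1.38, so it passes 1.5-fold in the RMA values alone. Slc4a4 encodes NBCe1, the basolateral sodium bicarbonate cotransporter that works in series with NHE3, and read 12.06 and 12.25, a difference of 0.19. With differences centred on a loess trend over level it was 0.06. Slc26a6, whose product exchanges chloride for oxalate and formate at the brush border, was below the floor, at 7.27 and 7.11, and was the proximal member that was lower in cKO.

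Of the proximal tubule marker genes 8 of 8 read higher in cKO, and their median difference was 0.30. Their linear RMA levels summed to 26585 for wild type and 32359 for cKO, a ratio of 1.22, and those of the 6 proximal members had a ratio of 1.21. The multiligand receptor gene Lrp2 differed by 0.28 and the phosphate transporter gene Slc34a1 by 0.10. The part of the marker shift in the exchanger differences was not tested.

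The thick limb gave no common direction. Slc12a1 encodes NKCC2, the furosemide-sensitive sodium potassium chloride cotransporter through which the thick limb takes up salt and the macula densa senses it. It read 11.76 in wild type and 11.67 in cKO, a difference of -0.09, with a signed fold of -1.02 and bounds of -1 and -1.04 in the authors' deposited table. Loess centring moved the difference to -0.21. It was the single tubule member above the floor that was lower in cKO, against 15 that were higher. Slc9a2 encodes the sodium/proton exchanger NHE2 found at the macula densa and distal tubule, and read 8.45 and 8.75, with a signed fold of 1.28 and bounds of 1.23 and 1.32 in the authors' deposited table. The basolateral exchanger gene Slc9a4 was below the floor on both arrays, at 6.75 and 6.89. Of the thick limb markers 6 of 6 read higher, with a median difference of 0.19 and summed levels of 13156 and 14893. Umod and Egf, at 0.12 and 0.13, were close to equal as Slc12a1 was, while the tight junction genes Cldn16 and Cldn19 differed by 0.74 and 0.68.

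In the distal convoluted and connecting tubule both members were higher in cKO by similar amounts. Slc12a3 encodes NCC, the thiazide-sensitive sodium chloride cotransporter, and read 11.92 in wild type and 12.26 in cKO, a difference of 0.34, or 0.21 after loess centring. The signed fold in the authors' deposited table was 1.27, with bounds of 1.25 and 1.3. Slc8a1 encodes NCX1, the sodium/calcium exchanger that extrudes calcium across the basolateral membrane of these segments and also works in smooth muscle and heart. Its brighter probe set read 9.33 and 9.70, a difference of 0.37. A dimmer second probe set read 8.27 and 9.15, a difference of 0.88, and its signed fold in the authors' deposited table was 1.65 with bounds of 1.59 and 1.72, against 1.29 with bounds of 1.25 and 1.33 for the brighter one. The probe sets share a direction but not a size, so the size of the Slc8a1 difference is uncertain. All 4 marker genes of the distal convoluted tubule read higher, with a median difference of 0.60 and summed levels of 5231 and 7383. Among them Pvalb, encoding parvalbumin, differed by 0.94.

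Intercalated cell members held the 2 largest differences of the set by brightest probe set, those of Slc26a4 and Slc4a9. Above the floor 6 of 6 were higher in cKO, with a median of 0.44. Slc26a4 encodes pendrin, the apical chloride/bicarbonate exchanger of base-secreting (type B) intercalated cells. It read 8.34 in wild type and 9.12 in cKO, a 1.72-fold difference, and its dChip intensities were 436 and 735. In the authors' deposited table its signed fold was 1.69 with bounds of 1.6 and 1.79. Slc4a9, which encodes the basolateral transporter AE4 of the same cells, read 9.05 and 9.82, a 1.70-fold difference, with a signed fold of 1.68 and bounds of 1.6 and 1.76 in the authors' deposited table. The apical and the basolateral exchanger of the type B cell thus differed by nearly the same amount, 0.79 and 0.76, and the differences were higher than those of 98.1% and 97.9% of all genes above the floor.

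The acid-secreting (type A) cell was represented by Slc4a1, which encodes AE1, its basolateral chloride/bicarbonate exchanger and also band 3 of the red cell membrane. Slc4a1 read 8.39 and 8.97, a 1.49-fold difference that lies just under the threshold, and its signed fold in the authors' deposited table was 1.69 with bounds of 1.63 and 1.75, above it. Red cell genes bear on this member: Hbb-b1 differed by 0.58 and Hba-a1 by 0.13, while the other 6 of the 8 listed, Alas2, Rhag, Klf1 and Epb42 among them, were below the floor on both arrays. The 2 globin genes had summed levels of 6500 and 7773. The part of red cell RNA in the Slc4a1 value was not tested.

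The remaining intercalated members were closer to equal. Slc12a7, encoding the potassium chloride cotransporter KCC4 of type A and proximal cells, read 9.94 and 10.24. Slc26a7, encoding an anion exchanger of type A cells of the outer medulla, read 7.90 and 8.09, with a signed fold of 1.21 and bounds of 1.16 and 1.27 in the authors' deposited table. Slc26a11 read 7.65 and 7.67, a difference of 0.02 whose sign turned with the dChip values and with median centring. Slc4a8, encoding the sodium-driven chloride/bicarbonate exchanger of type B cells, stayed just below the floor at 7.47 and 7.38. So the members of one cell class ranged from equal levels to a 1.72-fold difference.

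All 8 intercalated cell markers read higher in cKO, where 53.9% of all genes above the floor were. Of the 8, 7 were at least 1.5-fold higher, a size that 4.11% of all genes above the floor passed. The median of the markers was 0.68. Their summed level, 4204 in wild type against 6791 in cKO, had a ratio of 1.62, against 1.39 for the 6 exchanger genes. Foxi1, encoding the forkhead factor required for intercalated cell identity, differed by 0.70, and the ammonia transporter genes Rhbg and Rhcg by 0.70 and 0.59. The proton pump subunit genes Atp6v0d2 and Atp6v1g3 differed by more than any exchanger gene, at 1.21 and 1.11. The part of the marker shift in the exchanger differences was not tested. Principal cell markers, the neighbours in the same tubule, were higher for 5 of the 7 listed genes, with a median of 0.26 and no floor applied.

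**Figure D2:**
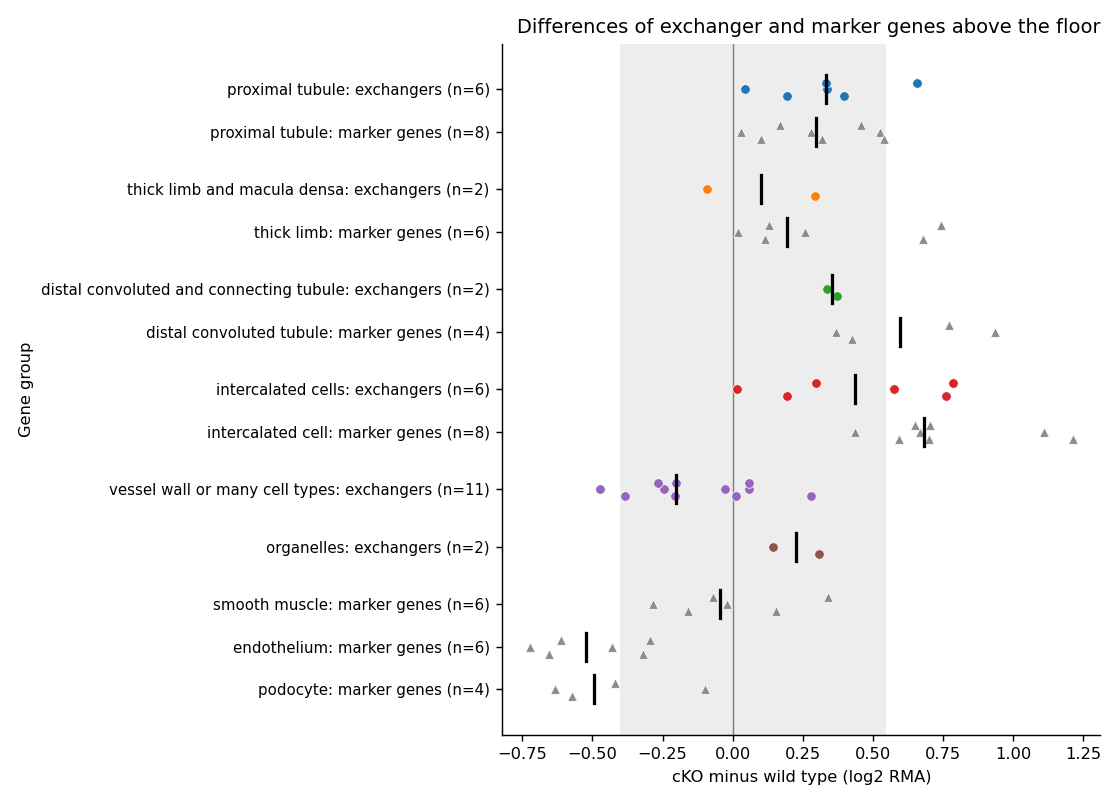
Difference of each gene above the floor, cKO minus wild type in log2 RMA units, for exchanger genes (coloured circles) and marker genes of the same or other cell types (grey triangles); the black bar is the median and the grey band holds the middle 90% of all 11580 genes, from -0.40 to 0.54. Tubule exchangers lie to the right of 0 with their markers, apart from Slc12a1 at -0.09. The members of vessel wall or many cell types have a median of -0.20, which is the value of Slc4a1ap. The circles include Slc4a1ap, Slc9a3r1 and Slc9a3r2, which do not encode transporters.

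Sequence before and around the start site is shown for 4 tubule members, to set 3 that were higher in cKO beside the thick limb gene that was not. They come from RefSeq, build GRCm38.p6, and run from 250 bases before the annotated start to 50 bases after it, on the strand of the gene. Start sites were found for 34 of the 46 members. Capitals mark matches on either strand to GTGGGAA, a site that RBP-J is known to bind, or to TGTTTNC, the core of forkhead factor sites such as those of FOXI1. No match of one motif overlapped the other. Slc26a1 had 2 start sites, and the window with the most matches is shown. The 4 windows shown all hold a match and do not stand for the other members. Slc26a4 lies at chr12:31559935-31560234 on the minus strand, Slc26a1 at chr5:108674747-108675046 on the minus strand, Slc8a1 at chr17:81738338-81738637 on the minus strand and Slc12a1 at chr2:125152350-125152649 on the plus strand.
Slc26a4: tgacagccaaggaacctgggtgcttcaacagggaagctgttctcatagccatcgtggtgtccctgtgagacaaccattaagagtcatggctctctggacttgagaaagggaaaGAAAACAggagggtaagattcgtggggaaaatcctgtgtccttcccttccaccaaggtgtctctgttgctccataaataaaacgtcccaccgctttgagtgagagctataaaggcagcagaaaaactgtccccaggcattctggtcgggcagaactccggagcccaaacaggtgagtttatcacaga
Slc26a1: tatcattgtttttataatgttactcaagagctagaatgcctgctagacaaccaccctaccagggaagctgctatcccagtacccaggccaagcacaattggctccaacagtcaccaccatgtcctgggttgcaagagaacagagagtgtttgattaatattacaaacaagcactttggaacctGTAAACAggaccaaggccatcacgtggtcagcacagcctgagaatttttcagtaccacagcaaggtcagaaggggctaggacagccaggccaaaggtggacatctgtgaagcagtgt
Slc8a1: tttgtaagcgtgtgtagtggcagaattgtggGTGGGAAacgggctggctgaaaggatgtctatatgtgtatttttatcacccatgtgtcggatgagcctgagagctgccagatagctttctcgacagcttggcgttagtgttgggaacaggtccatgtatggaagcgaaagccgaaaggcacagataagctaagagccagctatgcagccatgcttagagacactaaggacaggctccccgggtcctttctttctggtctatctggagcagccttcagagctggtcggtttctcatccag
Slc12a1: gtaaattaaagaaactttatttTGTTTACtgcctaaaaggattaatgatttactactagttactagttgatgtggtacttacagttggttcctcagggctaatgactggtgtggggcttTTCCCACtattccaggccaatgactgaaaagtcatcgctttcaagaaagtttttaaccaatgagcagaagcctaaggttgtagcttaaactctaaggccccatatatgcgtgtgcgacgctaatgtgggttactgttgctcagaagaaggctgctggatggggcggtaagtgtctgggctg

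In these windows Slc26a4 and Slc26a1 each held 1 forkhead match, Slc8a1 held 1 RBP-J match, and Slc12a1 held 1 of each. Of 43 start sites of the members, 8 held the RBP-J motif (18.6%), where 6.38% of all 32851 windows did. The genes were Slc12a1, Slc12a8, Slc26a8, Slc4a10, Slc4a1ap, Slc4a2, Slc4a3 and Slc8a1. The forkhead motif was in 7 of the 43 windows (16.3%), against 20.5% of all windows, in Slc12a1, Slc26a1, Slc26a4, Slc4a7, Slc4a8, Slc9a3 and Slc9a9. Slc4a9, Slc4a1 and Slc12a3, which were also higher in cKO, are not among the genes with a match. As 34 of the 46 members had a window, a gene missing from these lists may have had none to search. A match describes the letters of the window and no binding.

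Members of the vessel wall or of many cell types were mostly lower or equal in cKO. All 11 were above the floor, 7 were lower and 4 higher, where 46% of all genes above the floor were lower. Their median was -0.20, or -0.07 with the dChip values. The lower genes include Slc9a3r2 and Slc4a1ap, which do not encode transporters. The RMA median is the value of Slc4a1ap, and the next higher gene, Slc4a2, differed by -0.03. The direction of this group thus rests in part on genes that are not exchangers. Slc9a3r2 encodes NHERF2, a scaffold for sodium/proton exchangers that is abundant in glomeruli and vessels, and read 11.11 in wild type and 10.63 in cKO. Its dChip intensities were 3580 and 2766, and the authors' deposited table gives it a fold of -1.29 (bounds -1.27 and -1.31). It had the largest negative difference of the members, -0.47, lower than all but 3.21% of genes above the floor. Its sister gene Slc9a3r1 of the proximal tubule went the other way, at 0.33.

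Slc12a4 encodes KCC1, the potassium chloride cotransporter that most cells use for volume control. It read 9.06 and 8.68, with a signed fold of -1.29 and bounds of -1.25 and -1.32 in the authors' deposited table. Slc4a7 encodes NBCn1, the sodium bicarbonate cotransporter through which arterial smooth muscle and endothelium raise their pH, and read 8.83 and 8.57. The authors' deposited table gives Slc4a7 a fold of -1.22 (bounds -1.17 and -1.27). Slc12a2 encodes NKCC1, the bumetanide-sensitive cotransporter of vascular smooth muscle and juxtaglomerular cells. In these cells it takes the place of NKCC2, and Slc12a2 had levels of 10.68 for wild type and 10.43 for cKO, a difference of -0.25. The signed fold for Slc12a2 in the authors' deposited table was -1.12 with bounds of -1.1 and -1.15. These 3 genes were lower with both of the authors' processings and with median or loess centring.

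Slc12a9 and Slc4a1ap differed by -0.21 and -0.20, and the latter was nearer to equal with the dChip values, at -0.06. The anion exchanger gene Slc4a2, encoding AE2, read 8.84 and 8.82. Slc4a3, encoding AE3 of heart and vessel muscle, read 8.22 and 8.28, and the sulfate transporter gene Slc26a2 read 7.75 and 7.76. These 3 were within 0.06 of equality, and the sign of Slc26a2 turned with the dChip values and with median centring. Slc4a11, whose product carries protons across the membrane, was the exception at 8.0 and 8.27, but in the authors' deposited table its signed fold was 1.05 with bounds of 0.98 and 1.13.

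Markers of the arteriole and glomerulus did not move alike. Smooth muscle markers had a median of -0.04 with 4 of 6 lower, and with linear levels that summed to 6131 for wild type and 6180 for cKO. All 6 endothelial markers read lower, with a median difference of -0.52, and their summed levels were 19248 and 13854, a ratio of 0.72. The 4 podocyte markers read lower as well, by a median difference of -0.50, with summed levels of 9808 and 8121. Ren1 read 10.77 and 10.19. The pools also differed in Ren1d genotype, since only the cKO mice had a copy of that gene with cre. The part of this genotype in the Ren1 value was not tested. Akr1b7, the other renin cell marker listed, was below the floor on both arrays, at 7.18 and 7.05. Its difference was -0.13 in the RMA values and 0.17 with the dChip values. The members of vessel wall or many cell types had summed levels of 7507 and 6419, a ratio of 0.86. Both sums include the scaffold gene Slc9a3r2, at 11.11 and 10.63 in log2 units, and the binding protein gene Slc4a1ap. No sum of the transporters alone was made for this group. The part of the endothelial and podocyte shift in Slc9a3r2, Slc12a4, Slc4a7 and Slc12a2 was not tested.

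Organellar exchangers set the pH of endosomes and the Golgi. Slc9a9, encoding the late endosome exchanger NHE9, read 7.82 in wild type and 8.13 in cKO. Slc9a7, encoding the Golgi exchanger NHE7, was below the floor at 6.93 and 7.23. Slc9a7 is X-linked, and the wild type pool alone held a female. The part of the sex make-up of the pools in the Slc9a7 value was not tested. Macrophage markers, for a cell type rich in endosomes and lysosomes, read higher for 6 of 6 genes, by a median of 1.01, with summed levels of 1494 and 3636. These 6 are the whole list, and 3 of them were above the floor on the cKO array alone. The part of the macrophage genes in these values was not tested.

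The 13 members known mainly from other organs were little seen here, and 12 of them were below the floor on both arrays. Slc26a10 was above it on the wild type array alone, at 7.79 against 7.46 in cKO, so its place among the 30 rests on its higher array. Neuronal Slc12a5, colonic Slc26a3, cochlear Slc26a5 and testicular Slc26a8 and Slc9a10 (now Slc9c1) were all below the floor. In all, 16 members were below it, with levels from 4.52 to 7.47 and differences from -0.25 to 0.42, and none differed by 1.5-fold. The largest, Slc4a5 at 6.07 and 6.49, had a fold of 1.07 (bounds 1 and 1.14) in the authors' deposited table. For 3 of the 16 the dChip values gave the other sign.

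**Figure D3:**
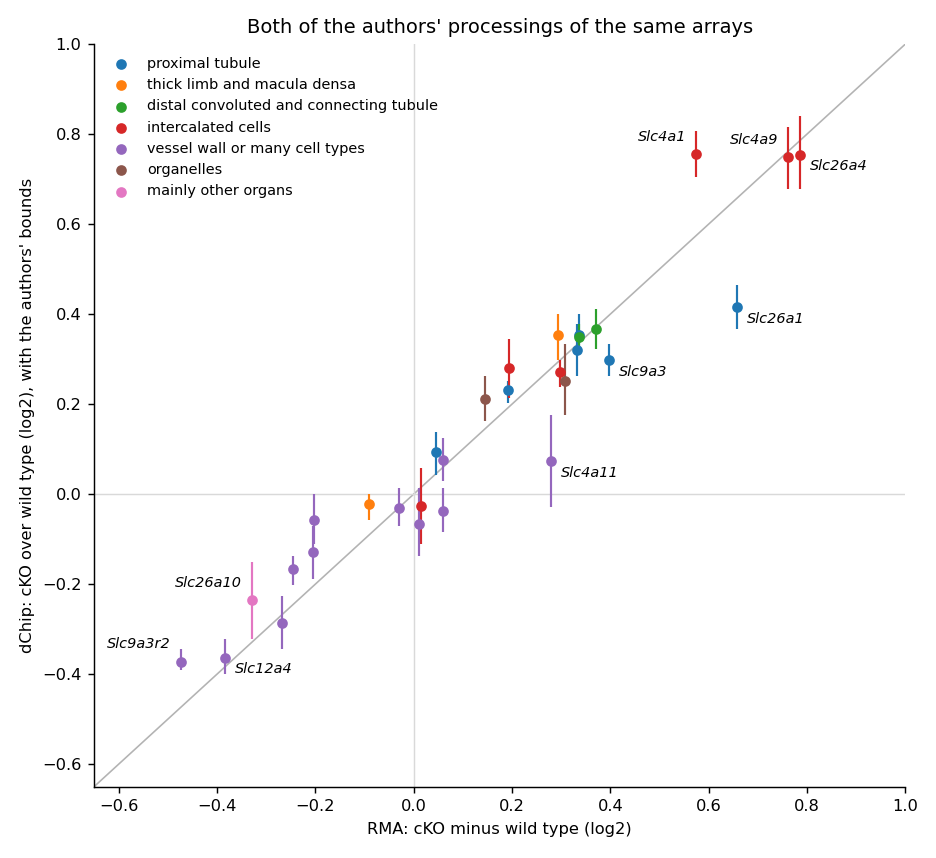
Difference of the 30 members above the floor in the RMA values (x axis, log2) against the dChip values (y axis, log2), with the bounds of the fold from the authors' deposited table as vertical lines and the line of equality in grey. Slc26a4 and Slc4a9 lie near the line, Slc26a1 and Slc4a11 below it and Slc4a1 above it.

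Both of the authors' processings of the same arrays gave the same sign for 27 of the 30 members above the floor. The 3 exceptions, Slc26a11 and Slc26a2 among them, had differences of at most 0.06 in the RMA values. With the dChip values 3 members were again at least 1.5-fold higher, where 4.13% of all genes were, and these were Slc26a4, Slc4a9 and, in place of Slc26a1, Slc4a1. In the authors' deposited table the bounds excluded equality for 23 of the 30 members, 17 higher and 6 lower. Such bounds were common on these arrays, since those of 43.6% of all genes above the floor lay above 1 and those of 34.7% below -1.

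Genes whose products work with the exchangers were listed by role, and 31 of the 36 above the floor were higher in cKO, where 53.9% of all genes were. Their median was 0.21, and 4 were past 1.5-fold higher, where 4.11% of all genes were. The carbonic anhydrase genes, whose enzymes supply the bicarbonate and protons, read higher in 5 of 5 instances (median difference 0.48). Car4, the membrane-bound enzyme of proximal and intercalated cells, read 10.85 and 11.61, followed by Car12 at 0.51 and Car15 at 0.48. The cytosolic enzyme gene Car2 was nearest to equal at 0.12.

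The genes listed as chloride and potassium channels of the thick limb and distal tubule read higher in 7 of 7 instances (median difference 0.34). The site of each gene was taken from the list and was not measured here, so other segments may contribute. Kcnj15 differed by 0.52 and Kcnj10, the basolateral potassium channel gene of the distal convoluted tubule, by 0.45. Calcium transport genes that serve beside Slc8a1 were higher in 4 of 5 cases. S100g, encoding a small calcium-binding protein, read 9.82 and 11.17, the apical calcium channel gene Trpv5 read 8.26 and 9.05, and Calb1, encoding the larger calbindin, differed by 0.39. The plasma membrane calcium pump gene Atp2b1, expressed in vessels as well, differed by -0.20.

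Genes of the WNK and SPAK kinase pathway, which phosphorylates and activates NCC, NKCC2 and NKCC1, were close to equal, with a median of 0.11 and 8 of 11 higher. The largest differences were 0.41 for Nedd4l, a ubiquitin ligase gene, -0.28 for Sgk1, an aldosterone-induced kinase gene, and 0.25 for Stk39, encoding SPAK. Subunit genes of the sodium pump were higher in 3 of 3 cases, but by little, with 0.20 for Fxyd2 and 0.12 for Atp1b1. Among binding partners of exchangers Ahcyl2 differed by 0.29, the NHERF-family scaffold gene Pdzk1 by 0.27 and the gene of the linker protein ezrin, Ezr, by 0.19, whereas Chp1, encoding a calcineurin-like subunit of sodium/proton exchangers, differed by -0.19.

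**Figure D4:**
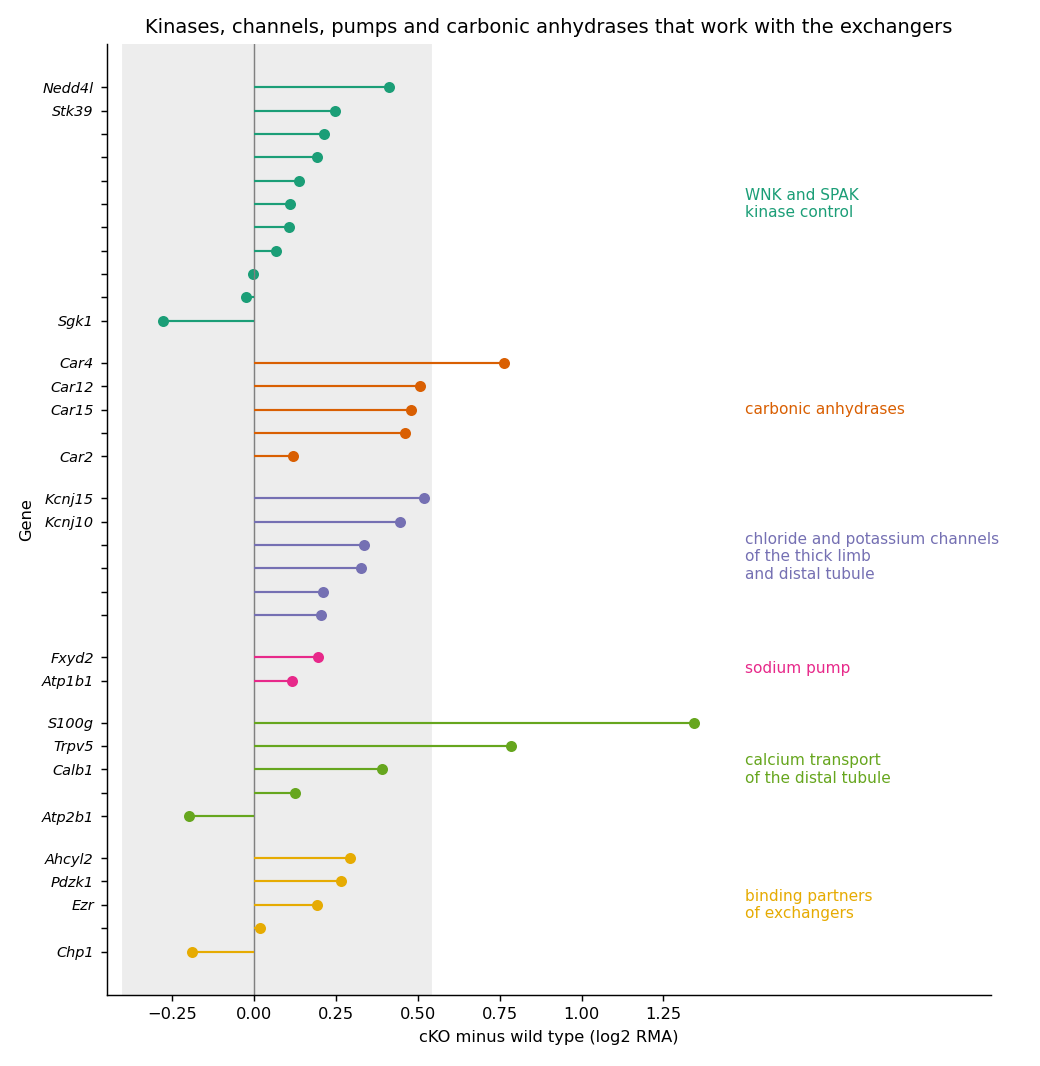
Difference, cKO minus wild type in log2 RMA units, of 34 of the 36 partner genes above the floor, grouped by role, with labels for those named in the text; the grey band holds the middle 90% of all 11580 genes. S100g at 1.34, Trpv5 at 0.79 and Car4 at 0.76 lie beyond the band, and Sgk1, Atp2b1 and Chp1 lie farthest to the left of 0.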

How the data were processed

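Per the labels' protocols, biotinylated cDNA made from total RNA with the Ambion WT Expression Kit was hybridised to Affymetrix whole-transcript arrays. The deposited log2 values (34760 probe sets) are RMA values, since the submitters' processing notes name RMA, R 2.15.0 and limma 3.12.1, with no role for each. RMA equalises the distributions of the arrays, which hides any change common to most genes. Per the file headers the authors also computed linear intensity values with dChip for 35512 probe sets, with a signed fold score of cKO over wild type (minus where wild type was higher) and its bounds. What confidence level the bounds have, and which dChip and annotation versions were used, is unknown here. The number of arrays limits the precision.

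Members were taken from the dChip annotation by symbol and joined to the RMA values by probe set, using the probe set with the highest mean of both arrays. They comprised 50 probe sets, and 43 of the 46 symbols matched a RefSeq accession and 3 a current symbol of GRCm38.p6. The floor was 7.56 and the call a difference of at least 1.5-fold. No p-values were computed, as each group has 1 array. Named were all members above the floor but 3, defining exchangers below it, and up to 3 genes of each other list. Slc26a6, Slc4a8, Slc9a4, Slc9a7, the members of other organs below the floor, Car2, Atp2b1, Chp1 and markers beyond 3 in a list fall outside this rule and were added after their values were seen. Some genes entered the counts and medians but are not reported here by name or plotted by name. Members and lists were chosen with earlier results of these data known. Alternatives were the dChip values, other floors, centring on the median or a loess trend (span 0.4), the mean over probe sets, a 2-fold call and transporters alone. Loess centring and counting were tested on simulated data. Scripts ran in Python 3.11.15 with statsmodels 0.14.6, pandas 2.3.3 and NumPy 2.4.6.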

Additional observations from a re-analysis of the deposited data

How the results depend on the processing

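Of 180 alternative values none reversed a difference of at least 1.5-fold, and 158 moved by less than 0.098, the standard deviation across genes of the RMA minus dChip difference, or stayed within 1.5 times for counts. The median of the members was 0.0595 with no floor and 0.31 with the floor at the 75th percentile, against 0.17. With the 2-fold call the count of higher members was 0, against 3. The intercalated cell median was 0.30 with no floor, which adds Slc4a8, against 0.44, and that of vessel wall or many cell types was -0.066 with the dChip values, against -0.20. The median of the members mainly of other organs rests on Slc26a10 at -0.33 and was -0.0484 with no floor. The number of higher members was 18 with the dChip values and 19 to 20 with centring or the mean over probe sets, against 21. The dimmer Slc8a1 probe set was tried after seeing the data, and the mean over its probe sets, 0.62, puts Slc8a1 past 1.5-fold and the count at 4. No paired analysis was possible because each group has 1 array. Leaving out an array was likewise not possible. Signal near background limits the 16 members below the floor.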

Other observations

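Ordered by gene family instead of nephron segment, the members above the floor were mixed. The Slc9 family of sodium/proton exchangers and their scaffolds read higher in cKO for 7 of 8 genes, by a median of 0.30, Slc9a3r2 being the lower one. The Slc26 anion exchangers read higher for 5 of 6 genes (median 0.10), and the Slc4 bicarbonate transporters in 5 of 8 with a median of 0.13. The Slc12 cation chloride cotransporters read higher for 3 of 7 genes (median -0.09). Within that family the sodium-coupled members read -0.25 for Slc12a2, -0.09 for Slc12a1 and 0.34 for Slc12a3, while the potassium-coupled Slc12a4 read -0.38 and Slc12a7 read 0.30.

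A dimmer probe set of Slc4a3 was below the floor and differed by 0.06, as did its brighter one.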
